A study of Gossypium hirsutum with 2 samples.

Results

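Fasciclin-like arabinogalactan proteins (FLAs) were followed in cotton leaf RNA through every probe set of the array that the platform annotation assigns to a single cotton gene with an alias of FLA and a number. The rule itself reads only the annotation, but the family was chosen with earlier results of these data known. It gave 19 probe sets of 23977 that represent plant transcripts, and these belong to 12 of the 520 genes that the annotation gives to a probe set on its own. The gene table used for names lists 18 numbered FLA genes, and FLA1, FLA3, FLA5, FLA8, FLA10 and FLA17 have no probe set under this rule.

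The leaves were taken in the field from Gossypium hirsutum (Upland cotton), cultivar Acala 1517-99, described in the labels as tolerant of drought. In the drought group irrigation was withheld, and in the well-watered group furrow irrigation was given; per the labels the plants of both were 9 weeks old and the third topmost leaf was sampled 9 days after water was withheld, from 8 plants per replicate and 3 field plots per treatment. The age is uncertain, since by the dates of sowing and sampling that the labels give the plants would be younger. The values analysed are those of 1 array for drought leaves and 1 array for well-watered leaves, and whether RNA of the plots was pooled on them is not stated. With 1 array per group no difference has a replicate error or a test, and each one describes these 2 arrays only.

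FLAs are secreted glycoproteins of the plant cell surface. They join stretches rich in hydroxyproline, which carry large arabinogalactan sugar chains, to fasciclin domains, which in animals act in cell adhesion, and many are held at the plasma membrane by a lipid anchor. Members of the family are known from work in Arabidopsis and in cotton fibre for roles in secondary cell walls and in cell elongation. The numbers of the cotton genes are those of the cotton family, and for most of them a role in leaves is not assumed here.

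The unit of every signal is that of MAS5, an Affymetrix algorithm that summarises the probes of a set as an intensity on a linear scale. Differences are log2 of the drought signal minus log2 of the well-watered signal, so that 1 means a 2-fold higher signal in drought leaves. A probe set was called measurable where its geometric mean signal over both arrays reached the median of plant probe sets, 72.3, which 10 of the 19 FLA probe sets did, representing 8 of the 12 genes. Dim control reporters (51 probe sets) gave a second limit: their 95th percentile was 144 on the drought array and 75.7 on the well-watered array. The leaf genes RCA1 (rubisco activase) and CAT2 (a catalase) were among the brightest probe sets, with signals of 20148 and 15764 on the drought array, against 16617 and 13608 on the well-watered array. Of the genes listed for trichomes and fibres, HOX3 had 66.8 on the drought array and 104 on the well-watered array. GHTTG1 had 447 and 341, and E6 had 92.3 and 216. HOX3 and E6 were thus lower on the drought array and GHTTG1 higher, and no cell type was called from them. The drought signals of HOX3 and E6 were under the reporter limit of that array. The part of such cells in the FLA values was not tested. Bulk leaf RNA cannot tell fewer cells of a type from less RNA per cell. The ratio of 3-prime to 5-prime signal of the actin control was 4.09 on the drought array and 14.1 on the well-watered array, and that of the ubq11 control was 10.2 and 5.80; the part of RNA quality in the values below was not tested.

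The FLA probe sets with the highest signals differed by no more than 0.32 on the log2 scale between the arrays. FLA14 had a signal of 2751 in drought leaves, against 2204 in well-watered leaves, on its bright probe set (Ghi.9544.1.S1_s_at), a log2 difference of 0.32. That signal stood at percentile 97.3 of plant probe sets on the drought array and at percentile 96.5 on the well-watered array. FLA12 followed with 848 in drought leaves and 844 in well-watered leaves, a log2 difference of 0.01 that is the nearest to 0 of all FLA probe sets. Its signal stood at percentile 91.0 of the drought array and at percentile 90.9 of the well-watered array. These were the only FLA probe sets in the brightest of 3 equal classes of measurable signal, where 0.626% of 3996 plant probe sets differed by 2-fold or more.

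FLA15, FLA11 and FLA4, with 1 probe set each, lay in the middle class of measurable signal. FLA15 (GhiAffx.16299.1.S1_s_at) had a signal of 209 in drought leaves, against 262 in well-watered leaves, a log2 difference of -0.32. FLA11 (Ghi.2198.1.S1_s_at) had 152 in drought leaves, against 236 in well-watered leaves, a log2 difference of -0.64. FLA11 and FLA15 were lower in drought leaves under every scaling tried and stayed within 2-fold. The drought signal of FLA11 lay close above the reporter limit of that array (144). FLA4 (Ghi.68.1.A1_s_at) had 169 in drought leaves and 154 in well-watered leaves, a log2 difference of 0.13, which became -0.11 when the arrays were scaled to spike-in controls. The ID of this FLA4 probe set marks the orientation A, whereas most FLA probe sets (15 of 19) are marked S.

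FLA4, FLA11, FLA12, FLA15 and the bright FLA14 probe set were the 5 that exceeded the reporter limit on both arrays. Of these, 0 differed by 2-fold, read against 1.53% of the 8249 plant probe sets above the limit on both arrays. At 1.5-fold, 1 of the 5 (FLA11, lower in drought leaves) passed, read against 9.5% of the same 8249. On the drought array 5 FLA probe sets exceeded the limit, and on the well-watered array 9 did, but the limit is itself lower on the well-watered array, so these counts do not compare the arrays.

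**Figure D1:**
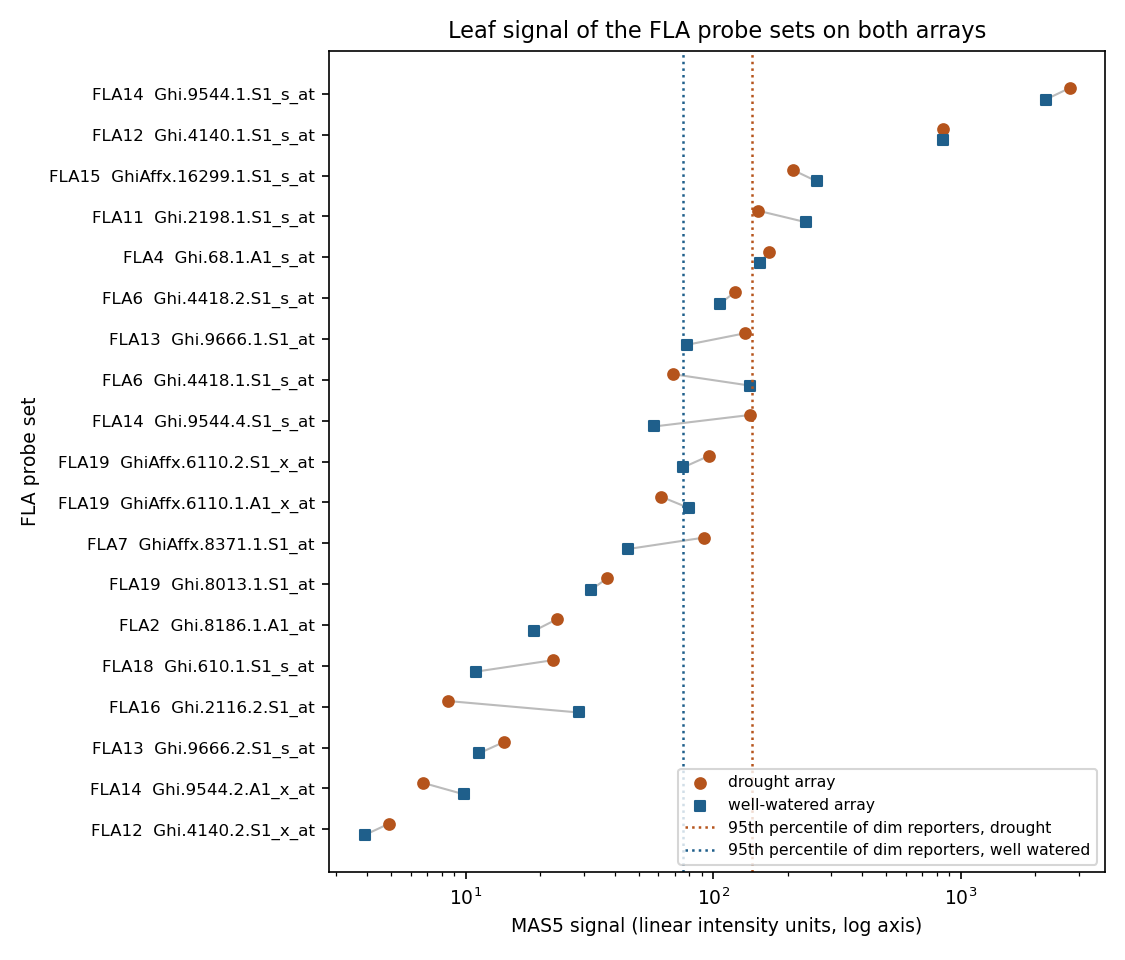
MAS5 signal (log axis) of the 19 FLA probe sets, ordered by mean signal, with the drought array as circles above the well-watered array as squares; dotted lines mark the 95th percentile of dim reporter controls, 144 on the drought array and 75.7 on the well-watered array. Only FLA4, FLA11, FLA12, FLA15 and 1 probe set of FLA14 lie to the right of both lines on both arrays.

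The other 5 measurable probe sets, of FLA6, FLA13, FLA14 and FLA19, fell in the dimmest of these classes, and among them were the 3 widest differences of the measurable FLA probe sets. The second FLA14 probe set (Ghi.9544.4.S1_s_at) had a signal of 140 in drought leaves, against 57.8 in well-watered leaves, a log2 difference of 1.28. Both of its signals were under the reporter limits. An FLA6 probe set (Ghi.4418.1.S1_s_at) had 68.7 in drought leaves, against 140.5 in well-watered leaves, a log2 difference of -1.03. Its drought signal was under the reporter limit of that array and its well-watered signal above the other.

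FLA13 (Ghi.9666.1.S1_at) had a signal of 134 in drought leaves, against 78.6 in well-watered leaves, a log2 difference of 0.77. This is the only measurable FLA probe set whose ID has neither the _s_at nor the _x_at ending. Those endings mark probe sets with probes that can match several sequences. The other FLA6 probe set (Ghi.4418.2.S1_s_at) had 122 in drought leaves and 106 in well-watered leaves, a log2 difference of 0.20. FLA19 (GhiAffx.6110.2.S1_x_at) had 96.1 in drought leaves and 75.7 in well-watered leaves, a log2 difference of 0.34. The drought signals of all 3 were under the reporter limit.

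In all, 2 of the 10 measurable FLA probe sets differed by 2-fold, 1 higher (FLA14) and 1 lower (FLA6) in drought leaves, read against 4.38% of 11989 measurable plant probe sets (1.82% higher and 2.56% lower) and 9.66% of the 3997 in the dimmest class. Both came from that dimmest class, which holds 5 FLA probe sets, and each had 1 of its signals below 72.3, so that it passed the minimum through the array where it is high. With the minimum required on both arrays, 0 of 8 FLA probe sets differed by 2-fold. The share of all plant probe sets under that filter was not computed, so this count is not a result about the FLAs. At 1.5-fold, 4 of the 10 passed (FLA14 and FLA13 higher, FLA6 and FLA11 lower), read against 16.4%. Positive differences numbered 7 of 10, read against 49.6% of measurable plant probe sets, and the median was 0.16, against -0.01 over all measurable plant probe sets. When each gene was taken at its brightest measurable probe set, 6 of 8 genes were above 0 and 0 of 8 differed by 2-fold. The range ran from -0.64 for FLA11 to 0.77 for FLA13. No share was computed for other genes taken this way, so neither the 6 of 8 nor the 0 of 8 is a result about the FLAs. Over all 19 FLA probe sets, dim ones included, 13 were above 0 and 5 differed by 2-fold, read against 51.7% and 24.4% of all plant probe sets.

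**Figure D2:**
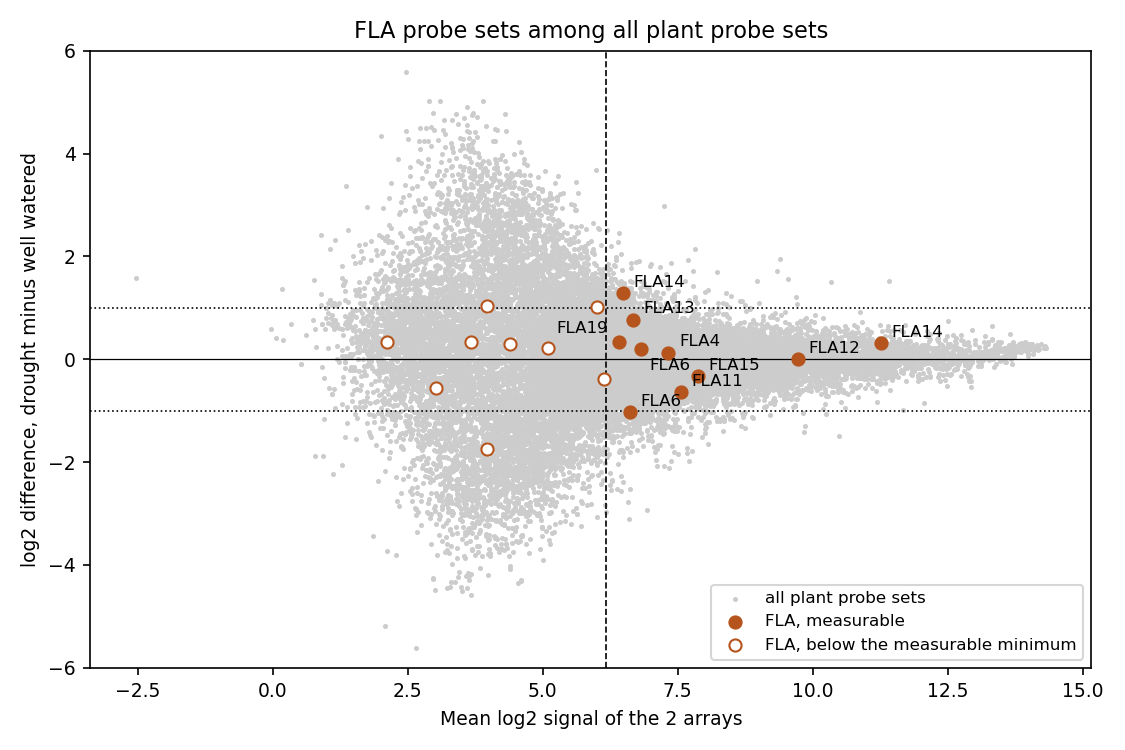
Log2 difference (drought minus well watered) against mean log2 signal for all plant probe sets (grey) and for FLA probe sets (filled where measurable, open below the measurable minimum, dashed line); dotted lines mark 2-fold. The grey cloud narrows with signal, and the 2 measurable FLA probe sets at 2-fold, of FLA14 (1.28) and FLA6 (-1.03), stand close to the dashed line.

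Several probe sets were assigned to each of 5 FLA genes, and those of 3 genes pointed in both directions with the signals as deposited. For FLA14, 0.32 on the bright probe set and 1.28 on the dim one stood beside -0.55 on the dimmest (Ghi.9544.2.A1_x_at), whose signals were 6.7 in drought leaves and 9.8 in well-watered leaves. The signals of the dim and the dimmest were under the reporter limits on both arrays.

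For FLA6 the pair had nearly the same mean signal, 114 and 98.2, yet gave 0.20 and -1.03, a gap of 1.23. On the drought array the pair had 122 and 68.7, and on the well-watered array 106 and 140.5. FLA19 gave 0.34, -0.38 and 0.22 on 3 probe sets, of which the middle one (GhiAffx.6110.1.A1_x_at, 61.6 in drought leaves and 80 in well-watered leaves) has an ID marked A and the others S. The FLA19 probe sets with 0.34 and -0.38 had mean signals of 85.3 and 70.2, on either side of the measurable minimum.

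The probe sets of FLA13 and of FLA12 pointed the same way with the signals as deposited. For FLA12 this rests on a difference of 0.01 on the bright probe set. Its pair had opposite signs once the arrays were centred on the median (-0.04 on the bright and 0.28 on the dim probe set). The dim FLA13 probe set (Ghi.9666.2.S1_s_at) had 14.3 in drought leaves and 11.3 in well-watered leaves, a log2 difference of 0.34 beside 0.77 on the brighter one. The dim FLA12 probe set (Ghi.4140.2.S1_x_at) had 4.9 in drought leaves and 3.9 in well-watered leaves, a log2 difference of 0.33 beside 0.01. Both dim probe sets lie far below the reporter limits.

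Probe sets of a gene also differ elsewhere on the array. Among 58 other genes with at least 2 measurable probe sets, the brightest pair of each differed by a median of 0.24 on the log2 scale, with an SD per probe set of 0.42, and 25 of the 58 pairs had opposite signs. A gap as wide as that of FLA14 (0.96) was present in 9 of these pairs (15.5%), and one as wide as that of FLA6 in 6 (10.3%). These pairs were not matched to the FLA pairs in brightness. The mean log2 signals of the FLA14 pair lay 4.77 apart and those of the FLA6 pair 0.21 apart. Only 3 of the 58 other pairs lay more than 4 apart. Homoeologous gene copies of the A and D subgenomes can share probes, so different probe sets of a named FLA gene may read different sets of copies. No probe sequences were at hand, and whether this holds for the FLA probe sets was not tested.

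**Figure D3:**
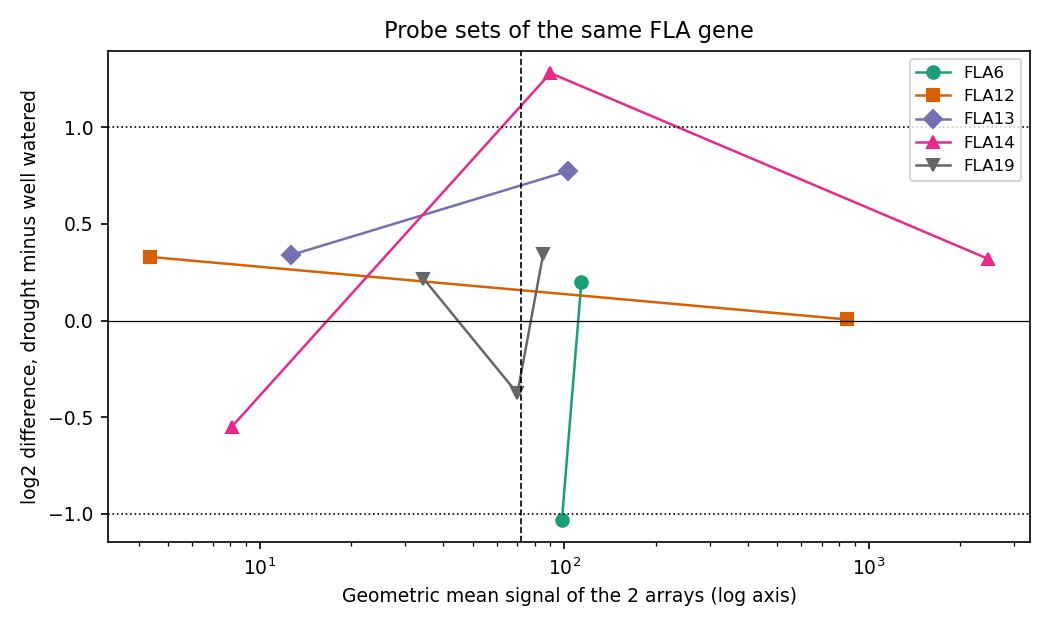
Log2 difference (drought minus well watered) against geometric mean signal (log axis) for the 5 FLA genes with several probe sets, with lines joining probe sets of a gene; the dashed line marks the measurable minimum and dotted lines 2-fold. With the signals as deposited FLA14, FLA6 and FLA19 cross 0, whereas FLA12 and FLA13 stay above it. The bright FLA12 probe set does so by only 0.01.

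Below the measurable minimum, 9 FLA probe sets remained, including every probe set of FLA2, FLA7, FLA16 and FLA18. Of these 9, 3 differed by 2-fold, read against 44.4% of the 11988 plant probe sets below the minimum. FLA7 (GhiAffx.8371.1.S1_at) had a signal of 91.8 in drought leaves, against 45.2 in well-watered leaves, a log2 difference of 1.02. FLA18 (Ghi.610.1.S1_s_at) had 22.5 in drought leaves and 11 in well-watered leaves, a log2 difference of 1.03. FLA16 (Ghi.2116.2.S1_at) had 8.5 in drought leaves and 28.6 in well-watered leaves, a log2 difference of -1.75. All of these signals were under the reporter limits, and FLA7 and FLA18 were under 2-fold once the arrays were centred on the median (0.97 and 0.98).

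FLA2 (Ghi.8186.1.A1_at) had 23.3 in drought leaves and 18.9 in well-watered leaves, a log2 difference of 0.30. A probe set of the same transcript cluster marked S (Ghi.8186.1.S1_s_at), to which the annotation gives no gene, was brighter, with 104 in drought leaves and 95.1 in well-watered leaves and a log2 difference of 0.12. The cluster of FLA6 likewise has a probe set without a gene, marked A (Ghi.4418.2.A1_at), with 15 in drought leaves and 10.2 in well-watered leaves. Neither is counted among the FLA probe sets.

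Ordered by the percentile of its brightest probe set, the family ran FLA14, FLA12, FLA15, FLA11, FLA4, FLA6, FLA13, FLA19, FLA7, FLA2, FLA18 and FLA16. Such an order describes probe sets, since their signals also depend on the probes and are not levels per transcript. FLA14, FLA12 and FLA15 held the first 3 places on both arrays. FLA11 and FLA4 changed places (percentiles 66.4 and 68.7 on the drought array, 74.3 and 66.1 on the well-watered array), as did FLA6 and FLA13, so these neighbours are not separated. At the low end FLA16 stood at percentile 9.83 on the drought array, below FLA18 (22.6) and FLA2 (23.1), but at 26.4 on the well-watered array, above FLA2 (20.3) and FLA18 (13.7).

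Scaling set the direction of the small differences. When the arrays were scaled to 27 hybridisation spike-in probe sets, the median of all measurable plant probe sets moved to -0.25, and the FLA median to -0.08. On that scale 4 of 10 measurable FLA probe sets were above 0, read against 24.3% of measurable plant probe sets. FLA4, FLA12 and the brighter FLA6 probe set turned below 0, and FLA12 also did when the arrays were centred on the median. The differences of FLA13, FLA19 and both measurable FLA14 probe sets remained positive and those of FLA11, FLA15 and the dimmer FLA6 probe set negative under all 5 other scalings run. With the pseudocount 0 of the 10 reached 2-fold, read against 2.41%.

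**Figure D4:**
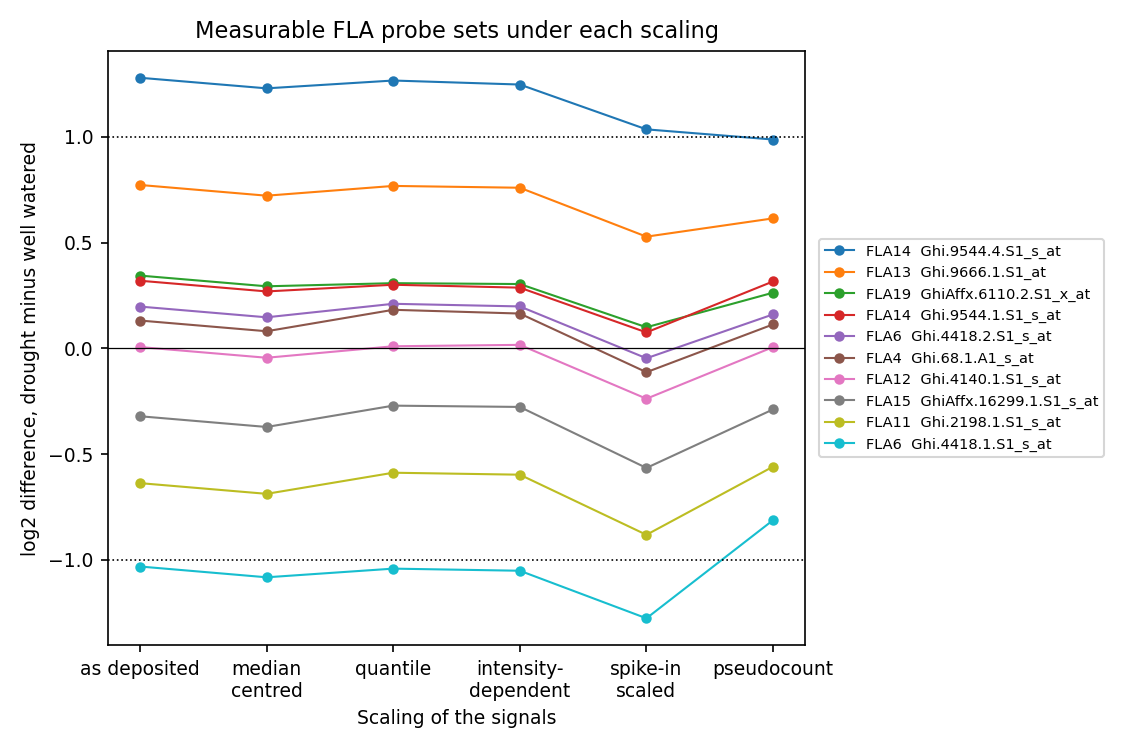
Log2 difference (drought minus well watered) of the 10 measurable FLA probe sets with the signals as deposited and under 5 other scalings; dotted lines mark 2-fold. The lines run nearly parallel and drop with spike-in scaling, where the dim FLA14 probe set stays above 1 (1.04), and with the pseudocount both 2-fold probe sets come under 2-fold (0.99 and -0.81).

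Other cell wall genes were taken by alias, covering cellulose synthase, sucrose synthase, expansin, xyloglucan endotransglucosylase/hydrolase (XTH), pectin and lignin enzymes and the fibre protein E6. Of 27 such probe sets 14 were measurable. The 10 measurable FLA probe sets had 7 above 0 and 3 below with a median of 0.16, against 2 above and 12 below with a median of -0.31 for the 14. At 2-fold, 2 of the 10 FLA probe sets passed, against 1 of the 14, that of E6, and 4.38% of measurable plant probe sets. Both of those FLA probe sets had 1 signal below the measurable minimum, whereas both E6 signals were above it. With the minimum required on both arrays, 0 of 8 FLA probe sets passed. Each of the 14 cell wall probe sets had both signals above the minimum, so the cell wall count stayed at 1 of 14. The share of all plant probe sets under that filter was not computed, so the 0 of 8 is not a result about the FLAs. With dim probe sets included, 13 of the 19 FLA probe sets were above 0 with a median of 0.22 and 5 differed by 2-fold, against 10 of the 27 cell wall probe sets above 0 with a median of -0.14 and 4 at 2-fold; all plant probe sets had a median of 0.02. The difference between these lists was not tested. The cellulose synthase gene CelA1 gave 134 in drought leaves and 78.8 in well-watered leaves on 1 probe set (0.76) and 254 and 331 on another (-0.38). CTL1, a chitinase-like gene, had 718 in drought leaves and 698 in well-watered leaves (0.04). Among the measurable ones, the largest negative difference was that of the fibre protein gene E6 (92.3 in drought leaves and 216 in well-watered leaves, -1.23). Next were XTH1 (238 and 382, -0.68) and RHM3 of rhamnose synthesis (169 and 260, -0.62). Another measurable probe set of XTH1 gave 79 and 98.8 (-0.32). The drought signals of E6, of this other XTH1 probe set and of the CelA1 probe set with 0.76 were under the reporter limit of that array (144). Against the spike-in controls this list had 1 of 14 above 0 and a median of -0.55.

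**Figure D5:**
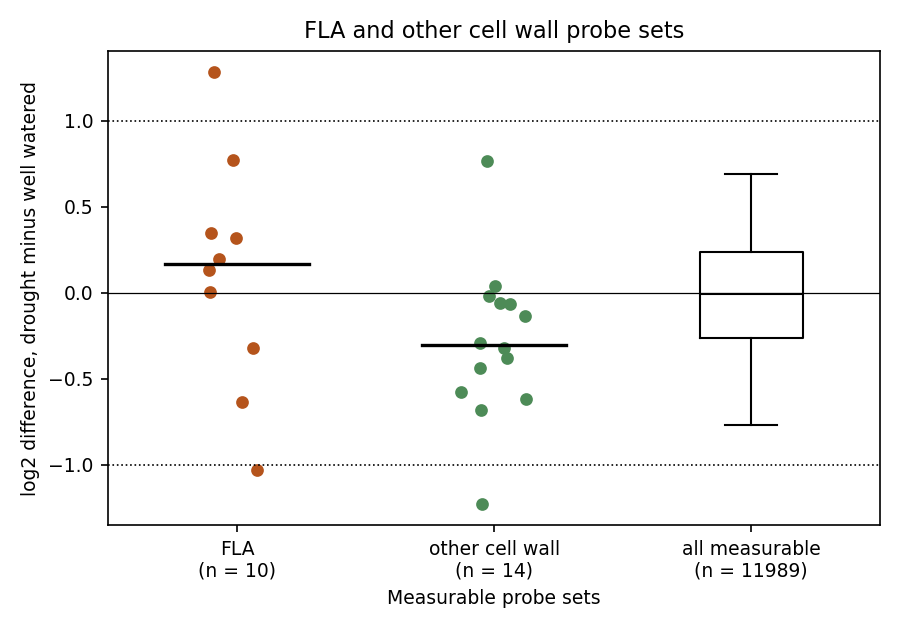
Log2 difference (drought minus well watered) of measurable FLA probe sets (n = 10), of other cell wall probe sets (n = 14) and, as a box with quartiles and whiskers from the 5th to the 95th percentile, of all measurable plant probe sets (n = 11989); thick bars mark medians of 0.16, -0.31 and -0.01. FLA probe sets spread to both sides of 0, and all but 2 cell wall probe sets lie below it.

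The authors' deposited table of differentially expressed probe sets holds 110 entries, and 0 of the 19 FLA probe sets are among them, read against 0.459% of plant probe sets; at that share 0 of 19 says nothing about the FLAs. The only detection calls read here were those of this table, so none was at hand for an FLA probe set. In the authors' deposited table, probe sets called absent reached signals of 235 on the drought array and 90.2 on the well-watered array, and probe sets called present went down to 56.2 and 43.6. The 235 is the highest of 56 absent calls with a median signal of 43.95, and the 90.2 the highest of only 6. Apart from FLA12 and the bright FLA14 probe set, every FLA signal on the drought array lies below the highest signal called absent there. On the well-watered array FLA4, FLA11, FLA12, FLA15, both FLA6 probe sets and the bright FLA14 probe set lie above the highest signal called absent.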

How the data were processed

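The authors deposited an intensity per probe set on a linear scale; the submitters' processing notes name GCOS and MAS5, and their versions and scaling target were not given in the sources used here. Per the labels' protocols, cRNA was labelled from 5.0 µg total RNA. The deposited list also gives a p-value for detection of each of its own probe sets on each array, per the file headers. Samples were grouped by title.

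Log2 differences (drought minus well watered) were computed without a pseudocount over 23977 plant probe sets, after leaving out 103 controls and 52 reporters (Python 3.11.15, pandas 2.3.3). The brightest reporter was left out of the reporter limit. The number of arrays limits precision. No test was run, with 1 array per group; the calculation was tested on simulated data. Genes came from the platform annotation (697 probe sets with 1 gene, 46 with several, the rest unnamed) joined by gene identifier to the table of Gossypium_hirsutum_v2.1, whose coordinates were not used. All 697 matched.

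Members and lists were chosen with earlier results of these data known. All FLA probe sets are named. Of the cell wall list, up to 3 measurable probe sets above 0 and the 3 lowest are named. The alternatives were 5 scalings (a pseudocount of 26.2, the 25th percentile of all signals, and a lowess span of 0.3 among them), filters, probe-set classes and folds of 1.5 and 3.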

Additional observations from a re-analysis of the deposited data

How the results depend on the processing

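No paired analysis was possible because each group has 1 array, and leaving out a replicate could not be done either. The count of measurable FLA probe sets above 0 in drought leaves was 7 of 10, read against 49.6% of measurable plant probe sets. It was 4 of 10 with spike-in scaling (24.3%) and 13 of 19 with no filter (51.7% of all plant probe sets). With a filter at the 75th percentile it was 2 of 2, with FLA12 at 0.01. Without probe sets ending in _x_at or _s_at it was 1 of 1. No share above 0 was computed for the 75th percentile filter or without those endings, so these counts are not results about the FLAs. The count at 2-fold (2 of 10) was 0 with the pseudocount (2.41% of measurable plant probe sets) and 4 at 1.5-fold (16.4%). With no filter it was 5 of 19 (24.4% of all plant probe sets). It was 0 of 2 with the filter at the 75th percentile and 0 of 8 with a filter on both arrays. Without _x_at and _s_at it was 0 of 1, and at 3-fold it was 0. The share of all plant probe sets was not computed for these last settings, so their counts of 0 are not results about the FLAs. The median (0.16) was -0.080 with spike-in scaling and 0.77 without _x_at and _s_at, where FLA13 alone was left. The stricter filters and the probe-set classes leave fewer probe sets, and the setting with no filter leaves more. The filter on both arrays left out both probe sets at 2-fold. The cause of the shift with spike-in scaling was not tested. Signals under the reporter limits bound what can be read from FLA6, FLA13, FLA19 and the dim FLA14 probe set.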
